A study of Mus musculus with 9 samples.

Results

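Annexins and S100A proteins are described here across mouse neurospheres, which are free-floating colonies of stem and progenitor cells. The 10 genes considered were S100a1, S100a4, S100a6, S100a10, S100a11, S100a13, Anxa1, Anxa2, Anxa3 and Anxa5, and a probe set was taken as a member when the platform annotation gave it 1 of these symbols. Of 45101 probe sets on the array, 15 met this rule, and they measured 9 of the 10 genes. S100a11 is listed only on a probe set that carries 3 gene symbols, so no value is given for it.

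All spheres were grown from C57BL/6J embryos at embryonic day 12.5 and were used at passage 3, with 3 Affymetrix arrays a group. BMP NCSC came from dorsal root ganglia (DRG), sensory ganglia formed by the neural crest, in medium with 20 ng/ml bFGF, 20 ng/ml EGF and 10 ng/ml BMP4, a bone morphogenetic protein. rNCSC came from DRG in the same medium without BMP4, and SCSC from spinal cord in that same medium without BMP4. All 3 groups therefore shared bFGF and EGF, with heparin and the supplements N2 and B27, and BMP NCSC and SCSC differed in tissue as well as in BMP4. Whether arrays within a group had different embryos or cultures behind them is not given by the labels, and the p-values thus cover the spread of these arrays alone, which may be technical.

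S100 proteins are small dimeric proteins with a pair of EF-hands, the loops that hold calcium, and most of them change shape on binding calcium and then attach to a target protein. Annexins bind acidic phospholipids of membranes when calcium is present, through a repeated domain that forms the core of the protein. The families meet in complexes, of which the best known joins annexin A2 to a dimer of S100A10. In development both families are known from mesenchyme, cartilage and glia, and S100A4 is also known as fibroblast-specific protein.

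Upstream sequences are shown for S100a4, Anxa1 and S100a6, which were near the lower end of the scale without BMP4, for Anxa2, the partner of S100a10, and for S100a1 and S100a13, which lie side by side. They are from RefSeq, build GRCm38.p6, and are written 5′ to 3′. The first 4 are on the strand of the gene and end at the base before the annotated start of transcription. Capitals mark the letters TATAAA or GGCGCC. The stretch for the S100a1 and S100a13 pair is the whole of the 104 bases between their starts, on the plus strand, since the genes run in opposite directions from it.
S100a4, chr3:90603620-90603769, plus strand: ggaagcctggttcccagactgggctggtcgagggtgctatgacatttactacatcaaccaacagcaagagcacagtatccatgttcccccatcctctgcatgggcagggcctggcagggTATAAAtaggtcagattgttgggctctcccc
Anxa1, chr19:20390672-20390821, minus strand: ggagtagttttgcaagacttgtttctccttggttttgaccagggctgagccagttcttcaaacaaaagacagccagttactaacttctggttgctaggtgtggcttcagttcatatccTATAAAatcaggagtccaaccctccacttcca
Anxa2, chr9:69453533-69453682, plus strand: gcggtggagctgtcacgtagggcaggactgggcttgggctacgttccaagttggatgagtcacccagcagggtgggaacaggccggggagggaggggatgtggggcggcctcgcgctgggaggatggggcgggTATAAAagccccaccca
S100a6, chr3:90612744-90612893, plus strand: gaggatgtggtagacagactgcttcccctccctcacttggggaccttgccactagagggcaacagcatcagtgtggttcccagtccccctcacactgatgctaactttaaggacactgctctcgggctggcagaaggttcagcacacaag
S100a1 and S100a13, chr3:90514331-90514434, plus strand: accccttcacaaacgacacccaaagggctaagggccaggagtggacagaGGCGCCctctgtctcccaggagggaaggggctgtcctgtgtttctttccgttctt

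The table held a promoter for 8 of the 10 genes. The 250 bases before each start were searched on both strands for 6 short motifs. These were TATAAA (the core of the TATA box), CCAAT (the CCAAT box), GGGCGG (the GC box), TGANTCA (the form bound by AP-1 factors), GGCGCC (a G/C palindrome) and CANNTG (the E-box). TATAAA began 31 bases before the start of S100a4, 32 before that of Anxa1 and 17 before that of Anxa2, and 12.4% of the 32851 promoters in the table held it. GGCGCC lay in the interval shared by S100a1 and S100a13 and in 9.59% of all promoters. Anxa2 also held TGANTCA once and GGGCGG at 3 places, motifs found in 6.75% and 32.7% of promoters. S100a6 held CCAAT once and CANNTG once, Anxa5 and S100a13 held CANNTG once each, and these motifs stood in 33.9% and 66.2% of promoters. The S100a11 promoter held TGANTCA at 2 places, GGGCGG at 3 and CANNTG at 2. No match overlapped another, and a match describes letters and shows no binding.

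Values are on the log2 scale, so a difference of 1 is a doubling, and values under about 4 lie near the lower end, where the size of a difference depends on the background correction. The labels were set against markers of the cell types named. The labels describe rNCSC as DRG crest cells reprogrammed in sphere culture so that they yield CNS cells, SCSC as CNS stem cells, and BMP NCSC as crest cells that were not reprogrammed and hold progenitors of peripheral nerve and mesenchymal cells. In BMP NCSC 5 of 6 neural crest markers reached a mean of 5 and 0 of 7 CNS progenitor markers did. In both rNCSC and SCSC all 7 CNS progenitor markers and 0 of 6 crest markers reached it. The summed log2 level of the crest markers per array was 54.2 to 56.1 in BMP NCSC, 20.1 to 21.9 in rNCSC and 19.6 to 20.4 in SCSC. BMP NCSC and rNCSC thus differed in the cell identity that the labels and these markers give as well as in BMP4, and the part of each in the differences below cannot be told apart.

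The first comparison asks how DRG spheres grown with BMP4 differed from those grown without it. S100a6, S100a4, Anxa1 and S100a1 had means between 10.90 and 13.73 in BMP NCSC and between 2.91 and 3.89 in rNCSC, near the lower end of the scale. Anxa5, Anxa2 and S100a13 were present in both and higher in BMP NCSC by 5.68, 4.87 and 4.54. S100a10 was abundant in both groups and did not pass the test on the probe set that represents it.

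**Figure D1:**
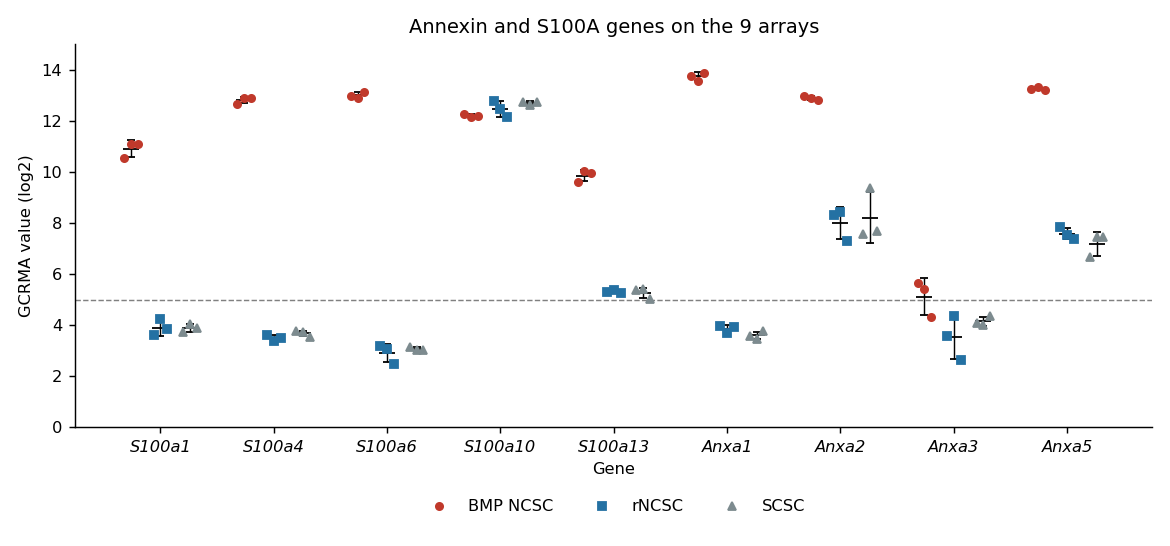
Values of the 9 measured genes (log2, y axis) on each array, with BMP NCSC as red circles, rNCSC as blue squares and SCSC as grey triangles; black bars give the mean and SD of 3 arrays and the dashed line marks the filter level of 5. The BMP NCSC arrays lie above all others for S100a1, S100a4, S100a6, S100a13, Anxa1, Anxa2 and Anxa5, and S100a10 lies between 12.14 and 12.75 on every array.

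Genes were tested when they reached 5 on at least 3 arrays, which 10320 of 18194 genes did, with limma and Benjamini-Hochberg adjustment over all of them. To be called, a gene needed both an adjusted p under 0.05 and a change of 1 or more in either direction. Of the 9 measured members 8 were tested, and Anxa3 fell below the filter. S100a1, S100a4, S100a6 and Anxa1 passed only through the BMP NCSC arrays, so passing already fixed the direction of any call. Of the 4 that also passed without those arrays, Anxa2, Anxa5 and S100a13 were called higher and S100a10 was not called. Over all genes tested, 22.6% were called higher in BMP NCSC than in rNCSC and 43.9% in either direction, so a call was common in this comparison. The median difference of the 8 tested members was 6.34, beside -0.07 for all genes tested, and the members' median carries the limit of the filter. For 7 of the 8 every BMP NCSC array lay beyond every rNCSC array, and groups were separate in this way for 79.6% of all genes tested.

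Among the S100 genes, S100a6 encodes calcyclin, which was first described in proliferating cells and binds the calcyclin-binding protein Cacybp. S100a6 (probe set 1421375_a_at) was at 12.98, 12.89 and 13.12 on the BMP NCSC arrays, against 3.18, 3.05 and 2.50 on the rNCSC arrays. The groups did not overlap and the difference was 10.09 (SE 0.17, adjusted p = 6.39e-10). Its 95% interval ran from 9.70 to 10.47. Cacybp was at 11.47 ± 0.076 in BMP NCSC and 12.41 ± 0.11 in rNCSC (SD, n = 3 each), a difference of -0.94 (limma, adjusted p = 1.88e-05) that was under the size limit.

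S100a4 encodes a protein that binds the heavy chain of non-muscle myosin and is known from motile and mesenchymal cells. S100a4 (1424542_at) was at 12.66, 12.87 and 12.87 in BMP NCSC, against 3.62, 3.36 and 3.50 in rNCSC. All BMP NCSC arrays were high and all rNCSC arrays near the lower end, a difference of 9.31 (SE 0.11, adjusted p = 1e-10). Myh9, the gene of that myosin chain, was at 12.15 ± 0.12 in BMP NCSC and 10.84 ± 0.26 in rNCSC (SD, n = 3 each) and was called higher, by 1.31 (SE 0.15).

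S100a1 encodes a protein of striated muscle that regulates calcium release and uptake there, and it is also found in cartilage cells. S100a1 (1419814_s_at) was at 10.53, 11.09 and 11.09 in BMP NCSC, against 3.60, 4.23 and 3.84 in rNCSC. The difference was 7.01 (SE 0.20, adjusted p = 1.15e-08) with no overlap. Its other probe set, 1417421_at, gave 7.74, 8.16 and 8.29 in BMP NCSC and 3.40, 3.37 and 3.50 in rNCSC, a difference of 4.64 (adjusted p = 1.41e-08), and both were called higher. Over all 19914 probe sets tested singly, 42.4% were called in either direction in this comparison. Ryr1 and Ryr2, the calcium release channels that S100A1 binds in muscle, were below the filter, with means between 2.44 and 3.30 in these 2 groups. Atp2a2, the calcium pump it also binds, was at 11.96 ± 0.13 in BMP NCSC and 11.92 ± 0.12 in rNCSC (SD, n = 3 each).

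S100a13 encodes a protein that takes part in the release from cells of FGF1, a growth factor that lacks a signal peptide. S100a13 (1418704_at) was at 9.59, 10.02 and 9.94 in BMP NCSC, against 5.29, 5.38 and 5.25 in rNCSC. The rNCSC arrays lay close together just above the filter level and did not overlap the others, a difference of 4.54 (SE 0.14, adjusted p = 1.91e-08). Fgf1 itself was at 8.35 ± 1.29 in BMP NCSC and 8.86 ± 0.60 in rNCSC (SD, n = 3 each), which differed by less than the spread between arrays.

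S100a10 encodes the partner of annexin A2, and its EF-hands do not bind calcium. S100a10 (1416762_at) was at 12.26, 12.15 and 12.19 in BMP NCSC, against 12.75, 12.45 and 12.14 in rNCSC. The groups overlapped, and the difference of -0.24 (SE 0.15) had a 95% interval of -0.58 to 0.09 and an adjusted p of 0.153. Its probe set 1456642_x_at was at 12.04, 11.58 and 12.11 in BMP NCSC and 12.33, 11.74 and 11.85 in rNCSC, a difference of -0.06 with an interval of -0.52 to 0.40. Both of these overlapped between the groups. Its probe set 1439348_at was at 7.29, 6.71 and 6.91 in BMP NCSC and 5.65, 4.85 and 4.76 in rNCSC, and was called higher by 1.88 (adjusted p = 0.000145). The probe sets of S100a10 thus disagreed, and with the mean of the 3 the difference was 0.53, below the size limit.

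Among the annexins, Anxa1 encodes a protein induced by glucocorticoids that limits inflammation, partly through formyl peptide receptors. Anxa1 (1448213_at) was at 13.76, 13.55 and 13.88 in BMP NCSC, against 3.96, 3.70 and 3.93 in rNCSC. The arrays of each group lay close together, and the difference was 9.87 (SE 0.13, adjusted p = 1.34e-10). Its other probe set, 1444016_at, stayed under 5 on every array, at 4.83, 4.64 and 4.16 in BMP NCSC and 2.52, 2.44 and 2.58 in rNCSC, and was not tested. With the mean of both probe sets the difference was 5.95 and was still called. The receptor gene Fpr2 was below the filter, with means of 3.20 in BMP NCSC and 3.29 in rNCSC.

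Anxa2 encodes the annexin that forms the complex with S100A10 and binds plasminogen and its activator at the cell surface. Anxa2 (1419091_a_at) was at 12.97, 12.87 and 12.81 in BMP NCSC, against 8.31, 8.43 and 7.29 in rNCSC. BMP NCSC lay 29.3-fold above rNCSC (log2 difference 4.87, SE 0.48, adjusted p = 1.89e-05), while the highest and lowest rNCSC arrays differed by over 1. Its probe set 1437692_x_at was at 6.99, 6.91 and 6.84 in BMP NCSC and 5.35, 5.18 and 4.68 in rNCSC, and was called higher by 1.84 (adjusted p = 8.72e-05). Its probe set 1437691_at stayed below the filter, between 2.13 and 2.45 on all 9 arrays, and shows no difference to measure. With the mean of the 3 the difference was 2.28 and was still called. On the probe sets that represent them, and with the means, Anxa2 was thus called while its partner S100a10 was not. The S100a10 probe set 1439348_at was called higher by 1.88. The difference between the changes of Anxa2 and S100a10 was not tested.

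Anxa5 encodes the annexin widely used as a stain for phosphatidylserine on dying cells. Anxa5 (1425567_a_at) was at 13.25, 13.33 and 13.19 in BMP NCSC, against 7.83, 7.53 and 7.39 in rNCSC. There was no overlap, and the difference was 5.68 (SE 0.22, adjusted p = 6.13e-08). Anxa3, known from neutrophils and microglia, was measured by 1460330_at, at 5.65, 5.40 and 4.30 in BMP NCSC, against 3.59, 4.38 and 2.63 in rNCSC. Its groups overlapped, 2 arrays reached 5, and it was therefore not tested. With no filter it was called, by 1.59 (adjusted p = 0.0158).

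The second comparison set the BMP4-treated DRG spheres against spinal cord spheres, and shares the BMP NCSC arrays with the first. Anxa1 was higher by 10.13, S100a6 by 9.93, S100a4 by 9.12 and S100a1 by 7.01, again with SCSC near the lower end of the scale. Over all genes tested 22.9% were called higher, 24% lower and 46.9% in either direction, and of the probe sets tested singly 45.1% were called. The median difference of the 8 tested members was 6.54, beside -0.10 for all genes tested. This median too carries the limit of the filter, since S100a1, S100a4, S100a6 and Anxa1 passed only through the BMP NCSC arrays, which fixed their direction. The arrays did not overlap for any of the 8, as for 83.6% of all genes tested.

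In SCSC, Anxa1 was at 3.59, 3.46 and 3.75, S100a6 at 3.15, 3.02 and 3.03, S100a4 at 3.76, 3.71 and 3.55, and S100a1 at 3.74, 4.05 and 3.87. All of these lay far under the BMP NCSC arrays given above. With the mean of its probe sets the difference for Anxa1 was 6.05. Anxa5 was at 6.65, 7.46 and 7.46 in SCSC, under BMP NCSC by 6.07 (SE 0.22, adjusted p = 3.8e-08). Anxa2 was at 7.57, 9.36 and 7.67 in SCSC, and the difference was 4.68 (SE 0.48, adjusted p = 2.24e-05). SCSC replicate 2 stood above the others for Anxa2, and without it the difference was 5.26. The Anxa2 probe set 1437692_x_at was at 4.97, 5.51 and 4.70 in SCSC, a difference of 1.85 (adjusted p = 7.82e-05), and with the mean of the 3 probe sets the difference was 2.18. S100a13 was at 5.36, 5.40 and 5.01 in SCSC, a difference of 4.59 (SE 0.14, adjusted p = 1.74e-08). Anxa5, Anxa2 and S100a13 passed the filter without the BMP NCSC arrays.

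S100a10 was at 12.74, 12.61 and 12.72 in SCSC, all above the BMP NCSC arrays. The difference of -0.48 (SE 0.15, 95% interval -0.82 to -0.15) had an adjusted p of 0.0136 but was under the size limit, so it was not called. The S100a10 probe set 1439348_at went the other way, at 5.53, 5.11 and 5.28 in SCSC, and was called higher in BMP NCSC by 1.66. For 1456642_x_at, at 12.00, 11.86 and 12.28 in SCSC, the difference was -0.13 (95% interval -0.59 to 0.33). With the mean of the 3 probe sets the difference was 0.35, so the direction for S100a10 depended on the probe set. Anxa3 was at 4.09, 4.02 and 4.36 in SCSC and overlapped BMP NCSC.

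**Figure D2:**
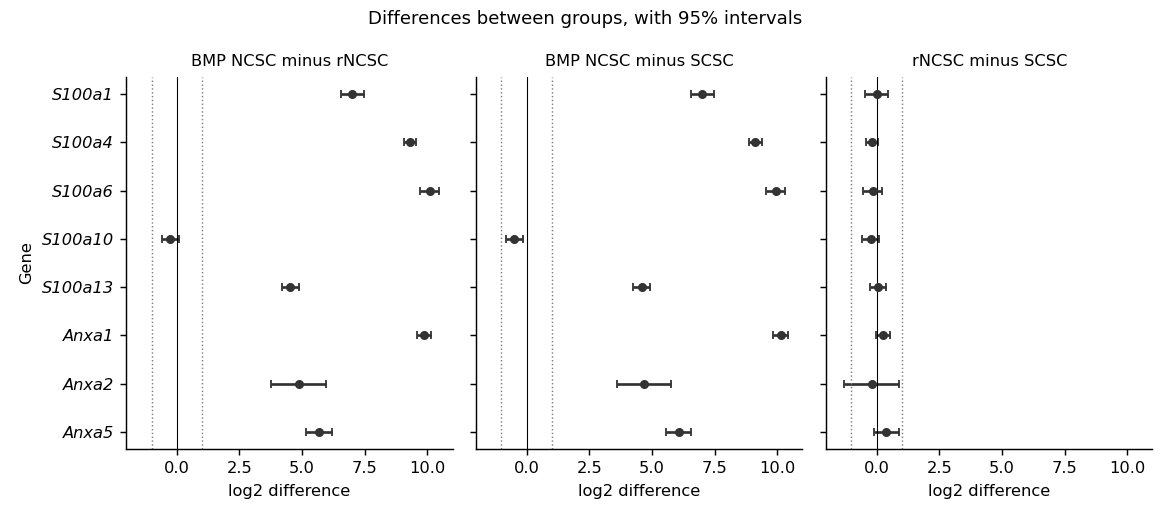
Log2 differences (x axis) of the 8 tested genes in the 3 comparisons, with 95% intervals; the solid line marks 0 and the dotted lines the size limit of 1. All genes but S100a10 lie between 4.54 and 10.13 against either untreated group, S100a10 lies at -0.24 and -0.48, and every interval of rNCSC minus SCSC includes 0.

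DRG and spinal cord spheres grown without BMP4 were set against each other directly. No member was called by limma, and none had an unadjusted p below 0.05, the smallest being 0.0686 for Anxa1. Over all genes tested 0.00969% were called, which was 1 gene, Efcab7, named here after its values were seen, and 1413 had an unadjusted p below 0.05. Of the probe sets tested singly 0.00502% were called. The differences ran from -0.24 for S100a10 to 0.39 for Anxa5. The intervals give how far apart the groups could still be. For S100a1 the interval was -0.47 to 0.47, for S100a13 it was -0.28 to 0.38, and for Anxa5 it was -0.11 to 0.89. For Anxa2 it was -1.29 to 0.90 and so did not exclude an SCSC level more than a doubling above rNCSC. The arrays of these groups overlapped for all 8 tested members on the probe sets that represent them, while they did not overlap for 20.7% of all genes tested. On the other S100a1 probe set, 1417421_at, they did not overlap, at 3.40, 3.37 and 3.50 in rNCSC and 3.25, 3.17 and 3.23 in SCSC, a difference of 0.21 that was not called (adjusted p = 0.567).

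The tested members also differed in how much they varied within a group. In BMP NCSC their SD of 3 arrays lay between 0.057 for S100a10 and 0.32 for S100a1, beside a median of 0.15 over all genes tested. Of the 8 tested members Anxa2 had the highest SD in both untreated groups, 0.62 in rNCSC and 1.01 in SCSC, beside medians of 0.17 and 0.12. Anxa3, below the filter, had an SD of 0.72 in BMP NCSC, 0.87 in rNCSC and 0.18 in SCSC. Of the 12 member probe sets that passed the filter, 7 had their lowest rNCSC value on replicate 3, where 36.9% of all probe sets had theirs, and 8 had their highest on replicate 1, where 27.7% of all probe sets had theirs. The 12 probe sets measured the 8 tested members, some by more than 1, so they are not separate counts.

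**Figure D3:**
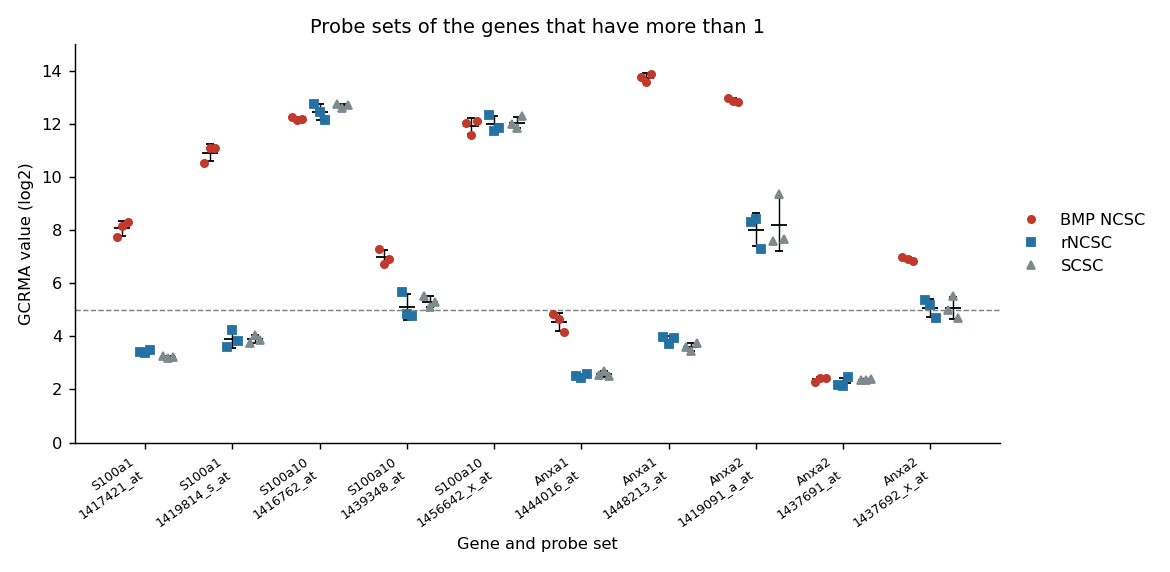
Values (log2, y axis) of each probe set of S100a1, S100a10, Anxa1 and Anxa2 on the 9 arrays, with symbols, bars and dashed line as in the plot of members by array. Probe set 1439348_at of S100a10 is higher in BMP NCSC (mean 6.97, against 5.09 in rNCSC and 5.31 in SCSC) while the other 2 overlap between BMP NCSC and rNCSC, and 1437691_at of Anxa2 lies between 2.13 and 2.45 on every array.

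Most S100 genes of the mouse lie together on chromosome 3. The members, and the list that holds S100a16, were chosen with earlier results of these data known. The count of calls in the row is thus a description. From S100a1 to S100a9 there were 12 S100 genes in a row, of which 10 had a probe set of their own. Of these 10, S100a1, S100a13, S100a16, S100a4 and S100a6 were tested. All 5 were called higher in BMP NCSC than in rNCSC, beside 22.6% of all genes tested. Of these, S100a1, S100a4 and S100a6 had passed the filter only through the BMP NCSC arrays, which fixed their direction. The other 5 measured there, S100a14, S100a3, S100a5, S100a8 and S100a9, had means under 4 in all groups. S100a5 lies between S100a4 and S100a6, and had a mean of 2.82 in BMP NCSC, against 2.93 in rNCSC. S100a3, which lies ahead of S100a2 and S100a4, had a mean of 2.85 in BMP NCSC, against 2.33 in rNCSC. Called genes thus had neighbours in the row that stayed below the filter. Outside the row, Chtop next to S100a1 differed by -0.40 and was not called, and Snapin beyond it was called higher by 1.12. S100a10 lies apart from this row, beside S100a11, with 56 protein-coding genes between S100a9 and S100a11.

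S100a1 and S100a13, whose starts are 104 bases apart as shown above, were both higher in BMP NCSC, by 7.01 and 4.54 against rNCSC. S100a1 was near the lower end of the scale without BMP4, whereas S100a13 was above 5 on every array.

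**Figure D4:**
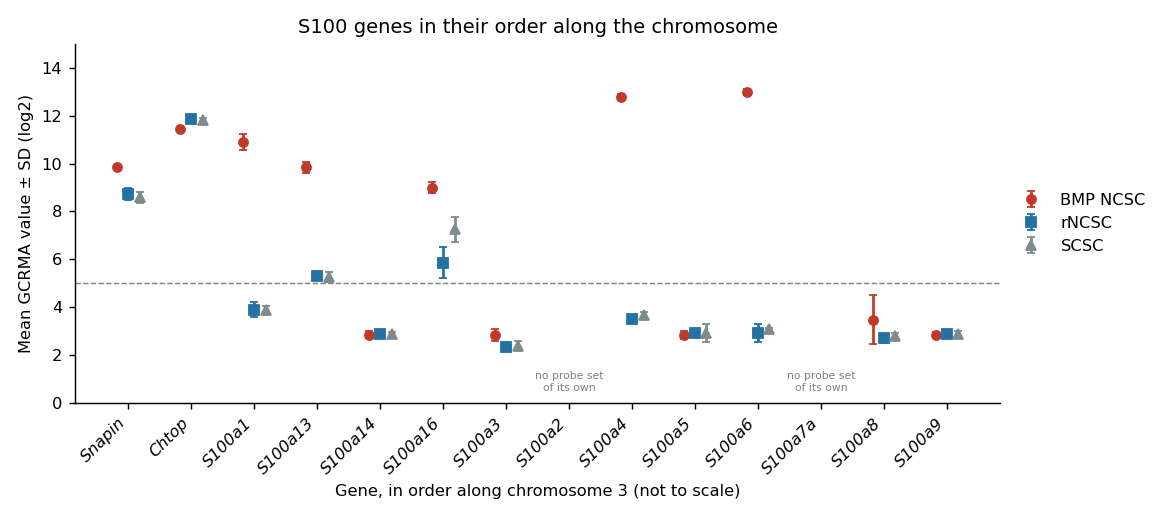
Mean log2 value with SD of 3 arrays (y axis) for Snapin, Chtop and the S100 genes in their order along chromosome 3 (x axis, not to scale), with BMP NCSC as red circles, rNCSC as blue squares and SCSC as grey triangles. The groups lie far apart for S100a4 (12.80 in BMP NCSC, 3.49 in rNCSC, 3.67 in SCSC) and close together for its neighbour S100a5 (2.82 in BMP NCSC, 2.93 in rNCSC, 2.91 in SCSC).

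Other annexins and S100 genes were taken from a list of 18, of which 15 were measured and 6 tested. All 6 were called higher in BMP NCSC in both comparisons, beside 22.6% of all genes tested against rNCSC and 22.9% against SCSC. Of these, Anxa6, Anxa7 and S100a16 passed the filter without the BMP NCSC arrays, and passing fixed the direction of Anxa4 and Anxa8. S100b also needed the BMP NCSC arrays to pass. Its rNCSC arrays at 5.02 and 7.95 reached 5 as well, so passing did not fix its direction. Anxa4, an annexin of epithelial and secretory cells, was at 11.99 ± 0.10 in BMP NCSC and 3.80 ± 0.37 in rNCSC (SD, n = 3 each), a difference of 8.19 (SE 0.21). Anxa7, an annexin that fuses secretory granules in the adrenal medulla, differed by 7.50 (SE 0.34) and Anxa8 by 5.93 (SE 0.25). S100a16, a widely expressed member, was at 8.99 ± 0.24 in BMP NCSC, against 5.86 ± 0.66 in rNCSC (SD, n = 3 each). Anxa9, Anxa10, Anxa13, S100a3, S100a5, S100a8, S100a9, S100a14 and S100g were below the filter.

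Partners and receptors of these proteins were also listed. Of 22 listed and 13 tested, 6 were called higher in BMP NCSC than in rNCSC, 0 lower and 7 in neither direction. The counts against SCSC were the same. Beside these stand 22.6% of all genes tested called higher and 21.3% lower against rNCSC, with 22.9% and 24% against SCSC. Of the 13, 8 passed the filter without the BMP NCSC arrays, and of these Myh9 alone was called. The other genes called higher, Ahnak, Ahnak2, Myof and Pla2g4a among them, passed only through those arrays. This fixed the direction of all of these but Pla2g4a, whose rNCSC arrays had a mean of 4.84 with an SD of 1.85. Ahnak, a giant scaffold that the annexin A2 complex binds, was at 12.54 ± 0.10 in BMP NCSC and 2.81 ± 0.23 in rNCSC (SD, n = 3 each), a difference of 9.74 (SE 0.12). Its relative Ahnak2 differed by 3.32 (SE 0.17) and Myof, a ferlin of membrane repair, by 3.15 (SE 0.21). Pla2g4a, the cytosolic phospholipase that annexin A1 is known to inhibit, differed by 7.83 (SE 0.77). The receptor genes Ager and Fpr2, and the S100A10-bound channel genes Kcnk3 and Scn10a, were below the filter. Ahnak, Ahnak2, Myof and Pla2g4a had means under 5 in rNCSC.

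Genes of plasminogen activation and surface proteolysis were listed because annexin A2 and S100A10 bind plasminogen. Of 9 listed and 4 tested, 2 were called higher and 1 lower against rNCSC, beside 22.6% and 21.3% of all genes tested. Plat and Plgrkt passed the filter without the BMP NCSC arrays. Mmp14 and Mmp2 passed only through those arrays, which fixed the direction of their calls. Plat, which encodes tissue plasminogen activator, was at 6.91 ± 0.51 in BMP NCSC and 12.11 ± 0.305 in rNCSC (SD, n = 3 each) and fell by 5.20 on the log2 scale (SE 0.25, adjusted p = 2.17e-07). The metalloprotease genes Mmp14 and Mmp2 were higher by 6.52 (SE 0.19) and 8.61 (SE 0.61). The plasminogen receptor gene Plgrkt was at 9.16 ± 0.10 in BMP NCSC and 9.27 ± 0.22 in rNCSC (SD, n = 3 each).

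Other EF-hand proteins were called higher for 7 of 12 tested and lower for 1 in BMP NCSC against rNCSC, with a median difference of 1.12. Those with the smallest p were Rcn3 (7.86, SE 0.15) and Rcn2 (1.37, SE 0.078), calcium binders of the secretory pathway, with the nucleobindin genes Nucb1 (3.68, SE 0.15) and Nucb2 (4.46, SE 0.25). Other calcium-dependent membrane binders, such as copines and synaptotagmins, were called higher for 2 of 7 tested and lower for 2, with a median of 0.55. Esyt1 and Esyt2, tethers between the endoplasmic reticulum and the plasma membrane, were higher by 2.50 (SE 0.17) and 1.08 (SE 0.088). Syt11, a synaptotagmin, was lower (log2 difference -2.09, SE 0.23), and the copine gene Cpne3 differed by 0.62 (SE 0.090), under the size limit. Against SCSC, 6 of the 12 other EF-hand genes were called higher and 1 lower, and of the other membrane binders 2 were called higher and 2 lower. These counts stand beside 22.6% of all genes called higher and 21.3% called lower against rNCSC, and 22.9% and 24% against SCSC. Rcn3 and Esyt1 passed the filter only through the BMP NCSC arrays, which fixed the direction of their calls.

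**Figure D5:**
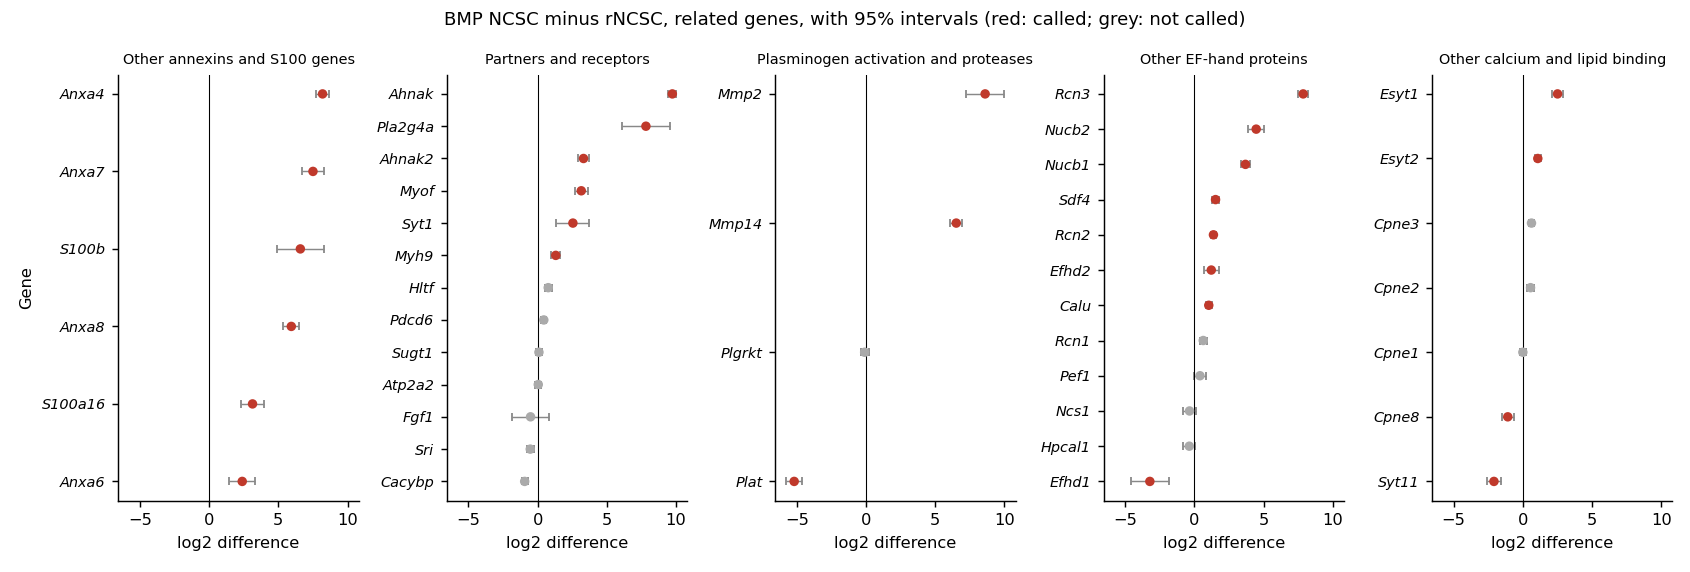
Log2 differences of BMP NCSC minus rNCSC (x axis) with 95% intervals for the tested genes of 5 lists; red points were called and grey points were not. The 6 other annexins and S100 genes all lie between 2.39 and 8.19, whereas the other lists hold genes on both sides of 0, such as Plat at -5.20 and Efhd1 at -3.23.

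The genes whose pattern was most like those of the members with the widest range of group means were sought by the root mean square difference of the 9 values, each gene centred on its own mean, among 10319 others. For Anxa1 they were Islr (0.14), Ahnak (0.20) and the proteoglycan gene Bgn (0.21). For S100a6 they were Anxa1 itself (0.28), the galectin gene Lgals3 (0.28) and Bgn (0.29). These are distances on the log2 scale over 9 arrays in 3 groups, given as a description.

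Markers of some other cell types were higher in BMP NCSC along with the members, while others were lower or went both ways. Of 9 mesenchyme and fibroblast markers 7 reached a mean of 5 in BMP NCSC and 2 in each untreated group, and their summed log2 level per array was 71.1 to 79.5 in BMP NCSC, 30.0 to 32.7 in rNCSC and 29.0 to 31.8 in SCSC. For 5 cartilage markers 4 reached 5 in BMP NCSC and 0 elsewhere, with summed levels of 55.6 to 57.6 in BMP NCSC, 15.3 to 17.4 in rNCSC and 15.1 to 15.9 in SCSC. Of 5 smooth muscle markers 2 reached 5 in BMP NCSC and 1 in each untreated group, and the 2 tested were called higher in BMP NCSC. Of these, Acta2 passed the filter without the BMP NCSC arrays, and Tagln passed only through them, which fixed its direction. Of 5 astrocyte markers 2 reached 5 in BMP NCSC, 4 in rNCSC and 3 in SCSC, and the 3 tested were called lower in BMP NCSC in both comparisons. Of the 3 Schwann and glial markers tested, Pmp22 and Cdh19 were called higher against rNCSC, by 3.51 and 4.24, and Gap43 lower (log2 difference -5.33). Of 5 sensory neuron markers 1, Tubb3, reached a mean of 5 in each group, and it alone was tested. Tubb3 was called lower in BMP NCSC than in SCSC (log2 difference -1.23, limma, adjusted p = 0.0434). Against rNCSC it differed by -0.30 and was not called. Of 5 epithelial markers Epcam alone was tested, and it had a mean of 5.68 in BMP NCSC, 4.08 in rNCSC and 3.92 in SCSC. Epcam was called higher by 1.60 against rNCSC (limma, adjusted p = 0.000428), but passed the filter only through the BMP NCSC arrays, which fixed its direction. The shares called over all genes tested were 22.6% higher and 21.3% lower against rNCSC, and 22.9% and 24% against SCSC. The part of these cell types in the annexin and S100 differences was not tested, and in spheres analysed in bulk fewer cells of a type and less RNA per cell cannot be told apart.

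S100a4 and Anxa1 are also known from blood cells and endothelium. None of 7 macrophage and microglia markers reached 5 in any group, their highest mean being 3.59 in BMP NCSC, 3.78 in rNCSC and 3.63 in SCSC, all for Csf1r. None of 5 endothelial markers did so either, with highest means of 3.30 in BMP NCSC, 3.47 in rNCSC and 3.51 in SCSC, all for Kdr. S100a8 and S100a9, which mark neutrophils, had means of 3.48 and 2.84 in BMP NCSC and 2.70 and 2.89 in rNCSC. The highest S100a8 value was 4.64, on BMP NCSC replicate 3.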

How the data were processed

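Expression was measured on 9 Affymetrix mouse arrays, grouped and numbered by their titles. The deposited values are log2 values, 1 per probe set, made by the authors with GCRMA, per the submitters' processing notes; the version is not given in these sources. This method corrects background by probe sequence and brings all arrays to 1 distribution, so unexpressed genes sit at low values and a change in total RNA would not show. Array medians lay between 3.99 and 4.03, and precision is limited by having 3 arrays a group.

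Of 45101 probe sets, 34958 carried 1 symbol and could be named; the 932 with several symbols and the 9211 not listed could not. Each gene was represented by its probe set with the highest mean, and every member probe set was also fitted. A group-means model over all 9 arrays was fitted with limma 3.58.1 in R 4.3.3, and tests were two-sided; the steps were tested on simulated data. All 10 members were named, and up to 4 genes with the smallest p in BMP NCSC minus rNCSC from each list; other list genes (Cacybp, Myh9, Fgf1, Atp2a2, Efhd1, S100b and those below the filter) and marker genes, and the neighbours Chtop and Snapin, were named after their values were seen. Members and lists were chosen with earlier results of these data known. The main model did not pair arrays by replicate number, and whether the numbers pair them was not settled. Deviations from group means correlated at 0.042 to 0.30 for same-numbered arrays, with 5 of 9 pairs over 0.1. For other pairs the correlations ran from -0.24 to 0.12. Alternatives covered the filter, probe sets, normalization, weights, variance prior, thresholds, block and arrays left out. Promoters and gene order came from RefSeq tables of GRCm38.p6; the labels name no build.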

Additional observations from a re-analysis of the deposited data

How the results depend on the processing

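The 7 members called higher in BMP NCSC against rNCSC and against SCSC stayed called under all 20 alternatives that count by gene, leaving out any 1 array included (7 in each such case), and no member was called in rNCSC against SCSC under any of them. Of the 7, S100a1, S100a4, S100a6 and Anxa1 passed the filter only through the BMP NCSC arrays, which fixed their direction wherever a filter was used. With no filter Anxa3 joined the 7 against rNCSC (1.59), which made 8. Fitted by probe set, 10 of the 12 member probe sets tested were called in each comparison with BMP NCSC. Of all probe sets tested, 42.4% were called in either direction against rNCSC and 45.1% against SCSC. With no size limit 1 member, S100a10, was lower in BMP NCSC than in SCSC (-0.48). With the mean of a gene's probe sets S100a10 turned direction, to 0.53 against rNCSC and 0.35 against SCSC, Anxa1 came to 5.95 against rNCSC and 6.05 against SCSC in place of 9.87 and 10.13, and Anxa2 to 2.28 and 2.18 in place of 4.87 and 4.68. Centring on genes present everywhere moved all differences of BMP NCSC minus SCSC by 0.10 and turned no member. The replicate block (titles number the arrays 1 to 3 in each group, and 8 of 9 arrays correlated best with their own number, a hint from the data only) changed no member's call.

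Over the whole table, BMP NCSC minus rNCSC had 2335 genes higher and 2197 lower. Every probe set on its own gave 4101 and 4334, and no size limit gave 3793 and 4250. BMP NCSC minus SCSC had 2366 higher and 2473 lower, with 4247 and 4741 by probe set and 3777 and 4446 with no size limit. For rNCSC minus SCSC, 0 genes were higher and 1 lower. The filter at 7 and the trended variance prior each gave 1 higher and 3 lower, and array weights gave 9 and 5. The 6 arrays alone, the replicate block and an adjusted p below 0.01 each gave 0 lower. With 1 array left out the counts ran from 0 to 18 higher and 0 to 53 lower, the highest without rNCSC replicate 2.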

Other observations

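S100b, a member of the S100 family known from glia, cartilage and melanocytes, was high in BMP NCSC at 12.35, 12.25 and 12.82. It was at 5.02, 4.69 and 7.95 on the rNCSC arrays and at 3.64, 4.39 and 4.49 on the SCSC arrays. The third rNCSC array stood apart, and the difference of rNCSC minus SCSC, 1.71 (SE 0.75), was not called (limma, adjusted p = 0.366).

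S100a16, like S100b, had untreated groups that did not overlap. It was at 6.02, 6.43 and 5.14 in rNCSC, against 6.84, 7.07 and 7.85 in SCSC. The difference of -1.39 (SE 0.36) had an unadjusted p of 0.0041 and an adjusted p of 0.201, so it did not pass over all genes tested, of which 20.7% had arrays that did not overlap in that comparison.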
